A study of Danio rerio with 15 samples.

Results

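Fluoxetine at 250 µg/L was compared with untreated water in zebrafish larvae, using 6 of the 15 arrays of the series: the 3 titled as fluoxetine 250 and the 3 titled as control. Larvae of 72 h after fertilisation spent 96 h in covered beakers holding 200 ml of water and about 100 larvae each, with the drug or with none, and lived on their yolk because no food was given. Every group had 3 beakers, and each array carried labelled material from 5 µg of total RNA of the pooled larvae of 1 beaker, so that n = 3 throughout and differences between single larvae were not measured. The other 9 arrays held fluoxetine at 25 µg/L and sertraline at 25 and 250 µg/L, and they entered the estimate of the spread between beakers. All embryos were fertilised within minutes of each other, and all groups shared 1 temperature and 1 light-dark cycle. The clock time at which each beaker was sampled was not given in the sources used here.

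Fluoxetine is an antidepressant of the selective serotonin reuptake inhibitor class, which blocks the transporter that returns serotonin to the neuron. The vertebrate circadian clock is a feedback loop in which CLOCK and BMAL proteins activate the period, cryptochrome and bHLH repressor genes, whose products then shut CLOCK and BMAL off. A second loop of ROR and REV-ERB nuclear receptors sets the level of the BMAL genes, and D-box factors such as TEF and NFIL3 carry the rhythm to target genes. In zebrafish the clocks of most tissues are reset directly by light, and per2 and several photolyase-related genes are among the genes that light induces.

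Values are log2 levels per probe set, and a difference is the mean of the 3 fluoxetine arrays minus the mean of the 3 control arrays, with the standard error (SE) of a limma fit. A probe set passed where limma's p, adjusted over all 15502 probe sets by Benjamini-Hochberg, was under 0.05. A call is said to end without an array where that adjusted p reached the threshold or more once the array was left out, and arrays are given by their replicate number. The 6 arrays had medians of 4.59 to 4.63. Pairs within the fluoxetine group correlated across probe sets at 0.9941 to 0.996, pairs within control at 0.9944 to 0.9968 and pairs between the groups at 0.988 to 0.9955; the lowest of these values involved fluoxetine replicate 1. As a sign of RNA quality, the GAPDH control probe sets differed between their 3′ and 5′ ends by 1.45 ± 0.29 (SD, n = 3) with fluoxetine and 1.66 ± 0.09 (SD, n = 3) in control (exact two-sided permutation p = 0.4, where 0.1 is the smallest p that 3 against 3 allows). The actin control probe sets differed by 7.16 ± 0.57 (SD, n = 3) and 7.24 ± 0.34 (SD, n = 3) in the same order (same permutation test, p = 0.9). Some arrays of the other groups had larger differences. Fluoxetine 25 replicates 2 and 3 had 8.55 and 8.95 for actin. Sertraline 250 replicate 2 had 3.16 for GAPDH and 9.46 for actin. The part of RNA quality in the contrasts with those groups was not tested. Whole larvae were extracted, so fewer cells of a type and less RNA per cell cannot be told apart in any of the values below.

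After 96 h, 71 probe sets were higher with fluoxetine and 108 were lower, which is 0.458% and 0.697% of those tested and 1.15% together. A further view by genes, each taken by its probe set with the highest mean, gave 49 higher (0.557%) and 76 lower (0.864%) of 8793. These shares are the background for the list counts below, and no list was tested against them. The median difference over all genes was -0.01. All 179 probe sets that passed had 3 fluoxetine arrays beyond the 3 control arrays, as did 14.8% of all probe sets, passed or not. Most changes were small: 9 probe sets rose and 23 fell by 2-fold or more, and the smallest that passed were a rise of 0.31 and a fall of -0.32 on the log2 scale. Of the 179, 134 had 1 gene symbol and stand for 133 genes, and 45 had none. Single arrays mattered for the count. It was 74 without fluoxetine replicate 1, 93 without control replicate 2, 115 without control replicate 3, 118 without control replicate 1, 130 without fluoxetine replicate 2 and 149 without fluoxetine replicate 3. 63 probe sets, 23 higher and 40 lower, passed in each of these 6 fits.

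**Figure D1:**
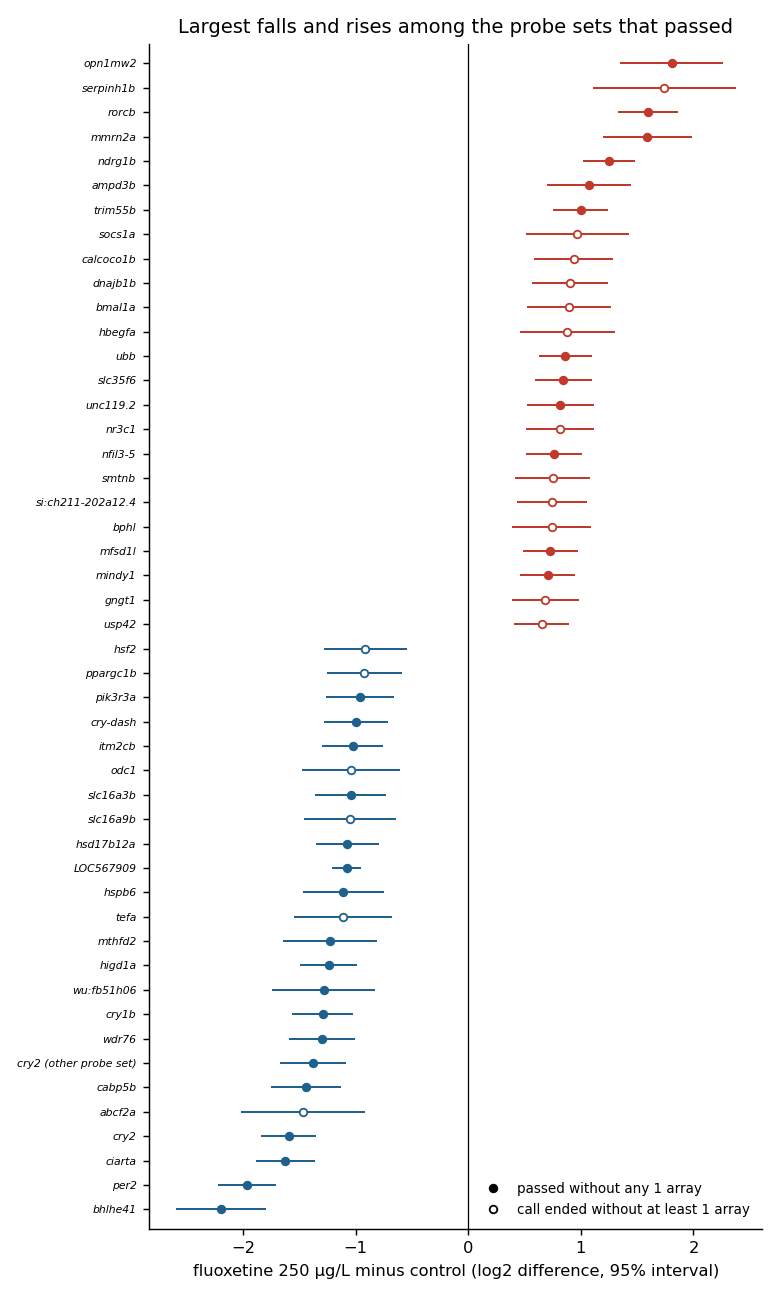
Log2 difference between fluoxetine at 250 µg/L and control (points) with its 95% interval (lines) for the 24 largest rises, in red, and the 24 largest falls, in blue, among probe sets with 1 gene symbol that passed. Filled points passed without any 1 of the 6 arrays, and open points lost the call without at least 1; falls reach -2.20 for bhlhe41 and rises reach 1.81 for opn1mw2.

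The negative limb of the clock held the largest falls in the comparison. Of 11 measured genes listed under this limb, 5 fell and 0 rose, where 0.864% of all genes were called lower and 0.557% higher. The median difference was -0.33 beside -0.01 over all genes, and all 5 calls passed without any 1 array. The list was chosen with earlier results of these data known, so its count and median are descriptions only. Because the clock time of sampling was not given per beaker, its part in the clock, D-box and light-induced genes was not tested. The transcriptional repressor bhlhe41 (also known as Dec2) had levels of 9.12, 9.20 and 9.12 in control and 7.28, 6.75 and 6.82 with fluoxetine. The groups were far apart, and bhlhe41 was 4.58-fold lower (log2 difference -2.20, SE 0.18, limma adjusted p = 6.64e-05). The period gene per2, a repressor that light induces in zebrafish, had levels of 10.91, 11.02 and 11.23 in control against 8.98, 9.20 and 9.08. It was 3.91-fold lower (-1.97, SE 0.11, adjusted p = 3.94e-06), and its second probe set, of lower level, gave -1.51 without passing (adjusted p = 0.16).

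The cryptochrome cry2 went from 8.11, 8.17 and 8.16 to 6.43, 6.60 and 6.61. This fall of -1.60 (SE 0.11, limma adjusted p = 1.51e-05) was matched by the second cry2 probe set, which fell by 1.38 (adjusted p = 0.000201). The gene ciarta, whose mammalian counterpart CHRONO represses CLOCK and BMAL, went from 10.23, 10.25 and 9.85 to 8.46, 8.34 and 8.66, a difference of -1.62 (SE 0.12, adjusted p = 2.74e-05). The cryptochrome cry1b went from 7.34, 7.06 and 7.05 to 5.84, 5.91 and 5.82, a difference of -1.29 (SE 0.12, adjusted p = 0.000186). In none of these 5 genes did any fluoxetine array reach the level of a control array.

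The other 6 genes listed under the negative limb did not pass. The list groups genes by family, and whether each zebrafish product represses CLOCK and BMAL was not tested. The repressor bhlhe40, a close relative of bhlhe41, differed by -0.28 (SE 0.12, limma adjusted p = 0.429) and the cryptochrome cry1a by -0.33 (SE 0.30, adjusted p = 0.852), with overlapping arrays for cry1a. The gene cry4 stood at 4.80, 4.99 and 4.64 against 3.94, 4.45 and 4.58, a difference of 0.48 (adjusted p = 0.339). The remaining 3, per3, cry3a and cry3b, had levels below 3 and differences between -0.05 and 0.02.

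**Figure D2:**
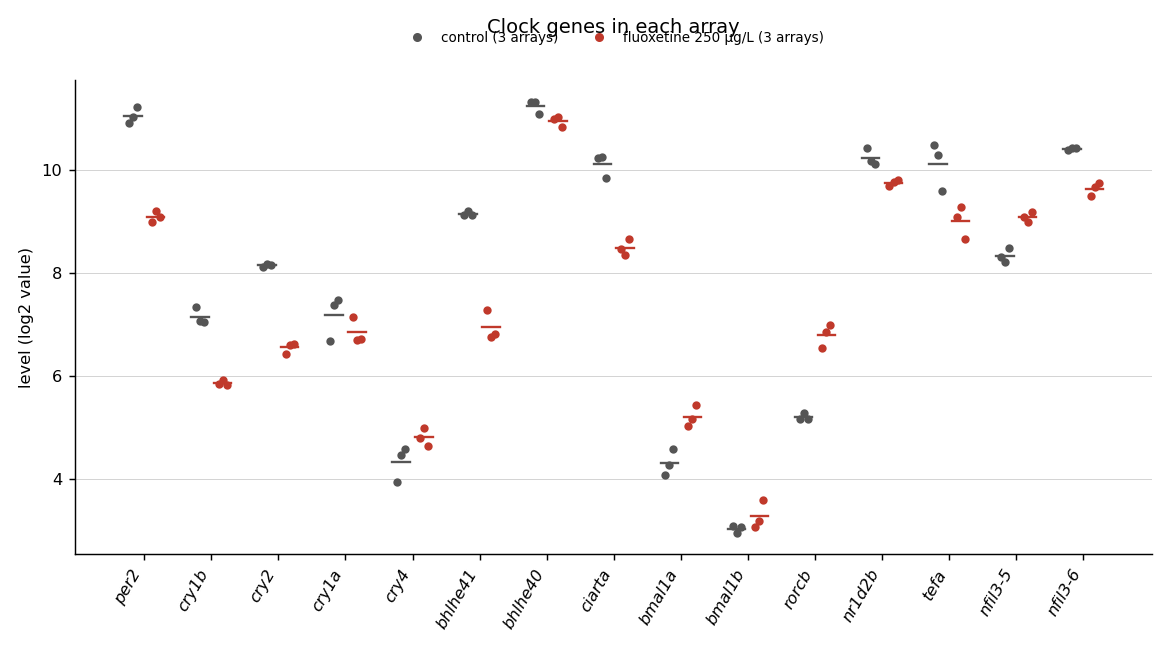
Log2 level in each of the 3 control arrays (grey) and 3 fluoxetine 250 arrays (red) for 15 clock genes, with a bar at each group's mean. The points of per2, cry1b, cry2, bhlhe41 and ciarta lie lower with fluoxetine without overlap, those of rorcb lie higher, and those of cry1a overlap.

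Among 6 measured clock activators, 1 rose and 0 fell, beside 0.557% higher and 0.864% lower over all genes, with a median difference of -0.01. The gene bmal1a, which encodes the partner of CLOCK, rose from 4.06, 4.26 and 4.59 to 5.01, 5.15 and 5.43 (0.89, SE 0.17, limma adjusted p = 0.022). Its call ended on removal of fluoxetine array 2 or 3 or control array 1 or 2 (adjusted p = 0.0624 to 0.0931). The paralog bmal1b differed by 0.25 (adjusted p = 0.403). The other 4, among them clocka, clockb and npas2, had levels below 3 and differences between -0.07 and 0.01.

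In the nuclear receptor loop and the clock outputs, 14 genes were measured, of which 2 rose and 3 fell, and the median difference was -0.04. Over all genes, 0.557% were called higher and 0.864% lower. The receptor gene rorcb, whose mammalian relatives activate the BMAL1 gene, stood at 5.16, 5.28 and 5.16 in control and at 6.54, 6.85 and 6.99 with fluoxetine. It was 3.02-fold higher (1.59, SE 0.12, limma adjusted p = 2.81e-05), with the groups well apart. The gene nr1d2b, which encodes a REV-ERB repressor of the same DNA sites, had a difference of -0.48 (SE 0.10, adjusted p = 0.0468). That call ended whichever of the 6 arrays was left out (adjusted p = 0.0605 to 0.18), so the call rests on all of them, although the groups did not overlap. A second nr1d2b probe set at a level below 2 differed by -0.01.

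The D-box factors moved in both directions. The activator tefa fell from 10.48, 10.30 and 9.59 to 9.09, 9.28 and 8.66 (-1.11, SE 0.20, limma adjusted p = 0.0163). The third control array lies close to the fluoxetine arrays, and the call ended on removal of fluoxetine array 1 or 3 or control array 1 or 2 (adjusted p = 0.0547 to 0.0754); a second tefa probe set differed by -0.24 (adjusted p = 0.947). Of the D-box repressors of the NFIL3 family, nfil3-5 rose from 8.30, 8.21 and 8.48 to 9.09, 8.98 and 9.19 (0.76, SE 0.11, adjusted p = 0.00547). Its relative nfil3-6 fell from 10.38, 10.43 and 10.42 to 9.50, 9.66 and 9.74 (-0.78, SE 0.13, adjusted p = 0.0101), a call that ended on removal of fluoxetine array 1 (adjusted p = 0.0593). A second nfil3-6 probe set at a level near 4 differed by -0.08 (adjusted p = 0.807).

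Of 9 measured genes that light induces in zebrafish or that repair DNA, 3 fell and 1 rose, and the median difference was -0.28. Over all genes, 0.864% were called lower and 0.557% higher. The fall of cry-dash, a photolyase-related flavoprotein, was the firmest, from 7.70, 7.41 and 7.25 to 6.57, 6.43 and 6.36 (-0.998, SE 0.13, limma adjusted p = 0.00204), and it passed without any 1 array. Its second probe set, at a lower level, gave -0.47 (adjusted p = 0.198). The transcription factor gene hsf2 fell by 0.92 (SE 0.17, adjusted p = 0.0193), a call that ended on removal of fluoxetine array 1 or 3 or control array 1 or 2 (adjusted p = 0.062 to 0.092). The nucleotide excision repair genes xpc and xpa, which recognise and verify damage, went opposite ways. The xpc gene differed by -0.62 (SE 0.14, adjusted p = 0.0497) and lost its call without any array other than control replicate 3 (adjusted p = 0.075 to 0.199); a second xpc probe set gave -0.41 (adjusted p = 0.624). The xpa gene differed by 0.56 (SE 0.11, adjusted p = 0.0254) and lost its call on removal of fluoxetine array 1 or 2 or control array 1 or 3 (adjusted p = 0.0907 to 0.108). The damage sensor ddb2 (-0.28, adjusted p = 0.15) and the photolyase cry5 (-0.52, adjusted p = 0.268) did not pass.

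A cone opsin gene had the largest rise among the probe sets that passed. Phototransduction begins when an opsin activates the G protein transducin, which releases the inhibitory subunit from the phosphodiesterase that breaks down cyclic GMP. Of 41 measured photoreceptor and phototransduction genes, 2 rose and 3 fell, beside 0.557% higher and 0.864% lower over all genes, with a median difference of 0.04. The green cone opsin opn1mw2 had levels of 6.14, 5.80 and 6.46 in control and 7.83, 8.18 and 7.83 with fluoxetine. It was 3.50-fold higher (1.81, SE 0.21, limma adjusted p = 0.000936), and the call passed without any 1 array. Means of opn1mw2 also lay above control with fluoxetine 25 (0.95, adjusted p = 0.0296), sertraline 25 (0.68, adjusted p = 0.778) and sertraline 250 (0.89, adjusted p = 0.302).

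The other opsins did not pass. The green opsin opn1mw1, whose sequence is close to that of opn1mw2, stood at 11.21, 11.09 and 11.06 against 10.40, 10.65 and 10.69, without overlap, and its difference was 0.54 (SE 0.15, limma adjusted p = 0.149). The blue opsin opn1sw2 differed by 0.33, the red opsin opn1lw1 by 0.31, the ultraviolet opsin opn1sw1 by 0.04 and the green opsin opn1mw4 by 0.01. The members of the green opsin family are near-identical copies in part, so signal shared between their probe sets cannot be told apart here.

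Downstream of the opsins, pde6c, the catalytic subunit of the cone phosphodiesterase, fell from 12.30, 12.25 and 12.15 to 11.28, 11.21 and 11.49 (-0.91, SE 0.10, limma adjusted p = 0.000727), and it passed without any 1 array. Of its cone inhibitory subunit pde6ha, 1 probe set rose by 0.41 (SE 0.08, adjusted p = 0.0332) and the probe set with the higher mean differed by 0.10 (adjusted p = 0.919). The pde6ha call ended on removal of fluoxetine array 1 or 3 or control array 2 or 3 (adjusted p = 0.109 to 0.139). The calcium-binding protein gene cabp5b, whose mammalian counterpart is found in retinal bipolar cells, fell from 8.48, 8.55 and 8.31 to 6.81, 6.83 and 7.36 (-1.44, SE 0.14, adjusted p = 0.000239), with no overlap.

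Other members of the cascade moved less firmly. The guanylate cyclase activator guca1c fell by 0.64 (SE 0.12, limma adjusted p = 0.0225), a call that ended on removal of fluoxetine array 1 or 2 or control array 1 or 2 (adjusted p = 0.082 to 0.105). The rod transducin gamma gene gngt1 rose by 0.68 (SE 0.13, adjusted p = 0.0267) and lost its call without any array other than control replicate 3 (adjusted p = 0.0614 to 0.109). The rod transducin alpha gene gnat1 stood at 8.04, 8.23 and 8.0 against 7.46, 7.61 and 6.86 but did not pass (0.78, adjusted p = 0.0528), although it did without the dimmest 40% of probe sets (adjusted p = 0.0264) and with a trended and robust prior (adjusted p = 0.0357). The photoreceptor and neuron transcription factor neurod1 rose from 8.98, 8.97 and 8.95 to 9.56, 9.46 and 9.80 (0.64, SE 0.08, adjusted p = 0.0011). The gene unc119.2, related to the carrier of transducin alpha in photoreceptors, rose from 3.92, 3.82 and 3.55 to 4.34, 4.79 and 4.61 (0.82, SE 0.13, adjusted p = 0.0102). Both calls passed without any 1 array, and that of neurod1 ended when fitted on the 6 arrays alone (limma adjusted p = 0.0704).

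**Figure D3:**
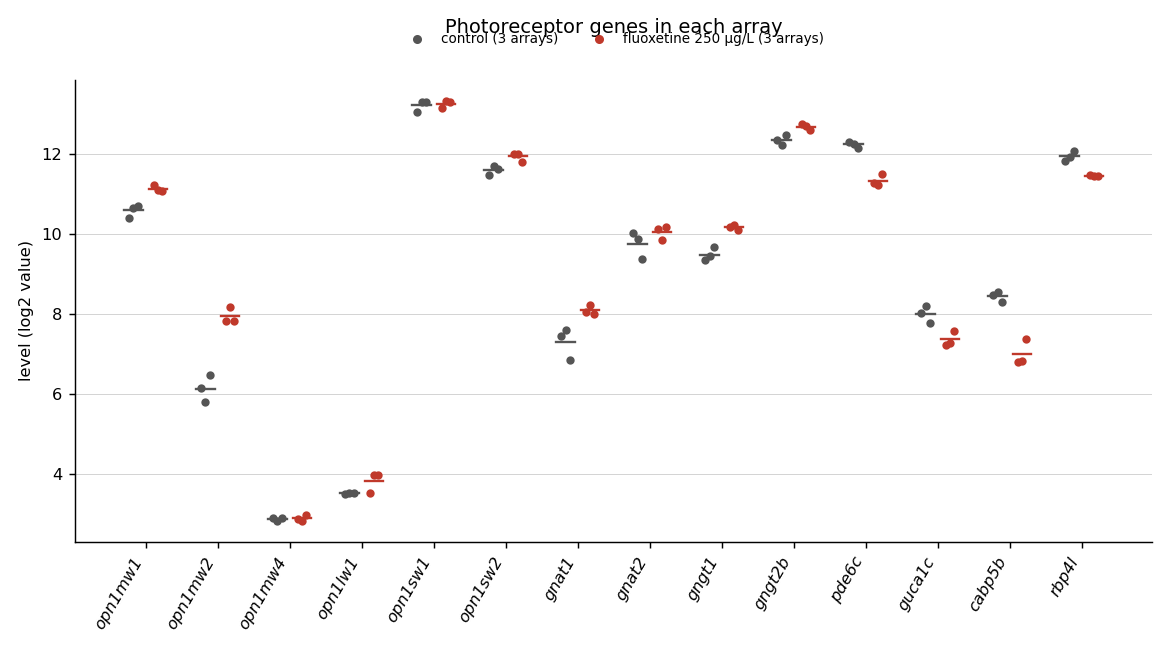
Log2 level in each of the 3 control arrays (grey) and 3 fluoxetine 250 arrays (red) for 14 photoreceptor and retinal genes, with a bar at each group's mean. The green opsin opn1mw2 lies higher with fluoxetine, pde6c and cabp5b lie lower without overlap, and the ultraviolet opsin opn1sw1 sits at the same level in both groups.

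Genes of the hypoxia response went both ways, with a median difference of 0.02. Of 27 measured, 2 rose and 2 fell, beside 0.557% higher and 0.864% lower over all genes. The gene ndrg1b, a member of a family induced by hypoxia and differentiation in mammals, rose from 6.88, 6.87 and 6.84 to 7.998, 8.05 and 8.29 (1.25, SE 0.10, limma adjusted p = 6.64e-05). Its paralog ndrg1a rose from 7.27, 7.30 and 7.33 to 7.79, 7.94 and 7.72 (0.52, SE 0.08, adjusted p = 0.00627). The mitochondrial protein gene higd1a, also hypoxia-induced in other settings, fell from 6.46, 6.25 and 6.41 to 5.07, 4.93 and 5.40 (-1.24, SE 0.11, adjusted p = 0.000145), and its second probe set gave -1.01 without passing (adjusted p = 0.149). These 3 calls passed without any 1 array. The glycolysis regulator pfkfb4b fell by 0.81 (SE 0.17, adjusted p = 0.0374), and that call ended whichever of the 6 arrays was left out (adjusted p = 0.0618 to 0.13). The growth factor binding protein igfbp1b had a large difference of 1.397 that did not pass (adjusted p = 0.0831). It passed without the fluoxetine 25 arrays (adjusted p = 0.0137), without the dimmest 40% of probe sets (adjusted p = 0.0334) and with array weights (adjusted p = 0.0351).

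Among 34 measured genes of insulin signalling, growth factor signalling and energy sensing, 3 fell and 0 rose, and the median difference was -0.03. Shares over all genes were 0.864% lower and 0.557% higher. The regulatory subunit of PI3-kinase pik3r3a fell from 6.73, 6.63 and 6.32 to 5.68, 5.43 and 5.68 (-0.96, SE 0.14, limma adjusted p = 0.00444). The autophagy-initiating kinase ulk1b fell from 10.23, 10.07 and 10.05 to 9.56, 9.47 and 9.36 (-0.65, SE 0.09, adjusted p = 0.00249). Both passed without any 1 array. The coactivator ppargc1b, which drives mitochondrial genes in mammals, fell by 0.92 (SE 0.15, adjusted p = 0.0105) and lost its call on removal of fluoxetine array 1 (adjusted p = 0.0593). A second ppargc1b probe set gave -1.20 (adjusted p = 0.0651).

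The integrated stress and unfolded protein response had 36 measured genes, of which 2 fell and 0 rose, with a median difference of -0.01. Shares over all genes were 0.864% lower and 0.557% higher. The mitochondrial folate enzyme mthfd2 fell from 5.64, 5.52 and 6.04 to 4.58, 4.34 and 4.60 (-1.23, SE 0.19, limma adjusted p = 0.00737), and it passed without any 1 array. The amino acid transporter chain slc3a2b fell by 0.50 (SE 0.09, adjusted p = 0.0203), a call that ended on removal of fluoxetine array 1 or 2 or control array 1 or 2 (adjusted p = 0.0736 to 0.0983). Outside the lists, odc1, the rate-limiting enzyme of polyamine synthesis, fell by 1.04 (SE 0.20, adjusted p = 0.0232), a call that ended on removal of fluoxetine array 1 or 3 or control array 1 or 3 (adjusted p = 0.0727 to 0.105).

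Further metabolic genes were among the largest falls. The lactate transporter gene slc16a3b went from 5.83, 5.65 and 6.08 to 4.78, 4.85 and 4.80 (-1.05, SE 0.14, limma adjusted p = 0.00289). The fatty acid elongation enzyme hsd17b12a went from 8.91, 8.86 and 9.17 to 7.86, 7.67 and 8.20 (-1.07, SE 0.12, adjusted p = 0.000936). These 2 calls passed without any 1 array. The monocarboxylate transporter slc16a9b had a difference of -1.05 (SE 0.18, adjusted p = 0.0163) and lost its call on removal of fluoxetine array 1 or 2 or control array 1 or 2 (adjusted p = 0.0599 to 0.0684). The lipogenesis regulator mid1ip1l fell by 0.81 (SE 0.09, adjusted p = 0.000936) and the nucleoside diphosphate kinase nme2a by 0.89 (SE 0.11, adjusted p = 0.00204), and both passed without any 1 array. Fitted on the 6 arrays alone, mid1ip1l did not pass (adjusted p = 0.0512). Beside 0.864% lower and 0.557% higher over all genes, 1 of 12 measured cholesterol synthesis and uptake genes fell and 0 rose. It was the squalene synthase fdft1 at -0.38 (SE 0.08, adjusted p = 0.0462), and its call ended whichever of the 6 arrays was left out (adjusted p = 0.0548 to 0.168).

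Heat shock and chaperone genes moved singly. Of 36 measured, 2 rose and 3 fell, beside 0.557% higher and 0.864% lower over all genes, and the median difference was 0.00. The collagen chaperone serpinh1b (Hsp47) stood at 5.33, 4.54 and 4.57 in control and at 6.77, 6.46 and 6.44 with fluoxetine. It was 3.34-fold higher (1.74, SE 0.29, limma adjusted p = 0.0114), but the call ended on removal of fluoxetine array 1 or control array 2 or 3 (adjusted p = 0.0505 to 0.0635). The HSP40 co-chaperone dnajb1b rose by 0.90 (SE 0.15, adjusted p = 0.0117) and lost its call without the same 3 arrays (adjusted p = 0.0527 to 0.0684).

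The small heat shock protein hspb6, which in mammals is abundant in muscle, fell from 6.22, 6.22 and 5.95 to 5.07, 4.67 and 5.32 (-1.11, SE 0.16, limma adjusted p = 0.00547) and passed without any 1 array. The mitochondrial chaperonin hspd1 fell by 0.60 (SE 0.12, adjusted p = 0.032), a call that ended without any array other than control replicate 1 (adjusted p = 0.0535 to 0.139). The third fall of this list is hsf2, given above. The ubiquitin gene ubb, which supplies the tag for protein degradation, rose from 10.47, 10.28 and 10.36 to 11.21, 11.37 and 11.12 (0.86, SE 0.10, adjusted p = 0.00135). A second ubb probe set, of higher level, gave 0.90 without passing (adjusted p = 0.117).

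Of 62 measured genes of muscle contraction and turnover, 3 rose and 0 fell, with a median difference of 0.06. Over all genes, 0.557% were called higher and 0.864% lower. The E3 ligase trim55b, which sits on the sarcomere, rose from 7.61, 7.60 and 7.22 to 8.47, 8.52 and 8.43 (1.00, SE 0.11, limma adjusted p = 0.000713). The AMP deaminase ampd3b rose from 4.68, 4.65 and 4.64 to 5.84, 5.81 and 5.53 (1.07, SE 0.17, adjusted p = 0.0082). Both passed without any 1 array. The muscle atrophy E3 ligase fbxo32 differed by 0.55 (SE 0.11, adjusted p = 0.0271), a call that ended without any array other than control replicate 1 (adjusted p = 0.075 to 0.117).

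Of 16 measured genes of the vascular endothelium, 1 rose and 0 fell, beside 0.557% higher and 0.864% lower over all genes. The gene mmrn2a, which encodes an extracellular matrix protein of endothelium, rose from 4.98, 5.18 and 4.81 to 6.62, 6.43 and 6.70 (1.59, SE 0.18, limma adjusted p = 0.000864). The median of the list was -0.02, and the endothelial receptor kdrl differed by 0.19 (adjusted p = 0.54).

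Of 11 measured suppressors of cytokine signalling and STAT pathway genes, 2 rose and 0 fell, and the median difference was 0.20. Shares over all genes were 0.557% higher and 0.864% lower. The suppressor socs1a stood at 6.59, 6.57 and 6.09 against 5.67, 5.72 and 4.95 (0.97, SE 0.21, limma adjusted p = 0.0461), and socs3b at 5.19, 5.24 and 5.15 against 4.43, 4.91 and 4.32 (0.64, SE 0.14, adjusted p = 0.0449). Without any array other than fluoxetine replicate 3, the socs1a call ended (adjusted p = 0.0626 to 0.18), and a second socs1a probe set gave 1.11 (adjusted p = 0.281). The socs3b call ended without any array other than control replicate 2 (adjusted p = 0.0931 to 0.17). Of 47 immediate early genes, 1 rose and 0 fell, beside 0.557% higher and 0.864% lower over all genes, with a median of 0.10. The EGF receptor ligand hbegfa rose by 0.88 (SE 0.19, adjusted p = 0.0468), a call that ended whichever of the 6 arrays was left out (adjusted p = 0.0547 to 0.191). The transcription factor klf2a had a larger difference of 1.14 (SE 0.36) and did not pass (adjusted p = 0.205), although it did without the fluoxetine 25 arrays (adjusted p = 0.0243).

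The glucocorticoid receptor list had 27 measured genes, with 0 called in either direction and a median difference of 0.01. Over all genes, 0.557% were called higher and 0.864% lower. The co-chaperone fkbp5, a sensitive target of the glucocorticoid receptor, stood at 10.27, 10.18 and 10.28 in control and at 9.17, 9.09 and 9.49 with fluoxetine. The groups did not overlap, but the difference of -0.995 (SE 0.26) did not pass (limma adjusted p = 0.113). Fitted on the 6 arrays alone, fkbp5 passed (adjusted p = 0.0311), as the 1 call of this list in that fit. The receptor gene nr3c1 had 3 probe sets that disagreed. The one with the lowest level rose from 3.33, 3.48 and 3.62 to 4.43, 3.92 and 4.52 (0.81, SE 0.14, adjusted p = 0.0117), while the brightest gave 0.23 (adjusted p = 0.385) and the third 0.37 (adjusted p = 0.727). The nr3c1 call ended on removal of fluoxetine array 1 or control array 1 (adjusted p = 0.054 to 0.0684).

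Cell cycle and neuronal lists held few calls, beside shares of 0.557% higher and 0.864% lower over all genes. Of 71 measured cell cycle and replication genes, 0 rose and 2 fell, 51 had negative differences, and the median was -0.09. The gene wdr76 fell from 4.24, 4.30 and 4.61 to 3.24, 2.91 and 3.11 (-1.30, SE 0.13, limma adjusted p = 0.000308) and passed without any 1 array. The histone-binding protein rbbp4 fell by 0.51 (SE 0.10, adjusted p = 0.0297), a call that ended without any array other than fluoxetine replicate 3 (adjusted p = 0.0512 to 0.125). The replicative helicase subunits mcm2 (-0.78, adjusted p = 0.134) and mcm4 (-0.78, adjusted p = 0.117) and the sliding clamp pcna (-0.45, adjusted p = 0.147) did not pass, although mcm2 did without the fluoxetine 25 arrays (adjusted p = 0.0437). Of 50 neuronal and glial genes, 38 had negative differences, and the median was -0.12. In that list 1 gene rose, neurod1, and 1 fell, the tubulin gene tubb5 at -0.55 (SE 0.11, adjusted p = 0.0314). The tubb5 call ended on removal of fluoxetine array 1 or 2 or control array 2 or 3 (adjusted p = 0.122 to 0.137), and a second tubb5 probe set gave -0.32 (adjusted p = 0.505).

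Several genes with firm changes lie outside all lists and were chosen by the size or the p of their change. The probe sets of LOC567909 and wu:fb51h06, whose products are not described in the sources used here, fell by 1.08 (SE 0.06, limma adjusted p = 1.78e-06) and by 1.28 (SE 0.21, adjusted p = 0.00967). For LOC567909 this was the smallest p of the comparison, from 9.72, 9.68 and 9.62 to 8.64, 8.53 and 8.61. The membrane protein gene itm2cb fell by 1.03 (SE 0.12, adjusted p = 0.00112), the annexin anxa4 by 0.91 (SE 0.11, adjusted p = 0.00147) and the phosphatase ptpn11b (SHP2) by 0.89 (SE 0.12, adjusted p = 0.00378). A second anxa4 probe set did not pass and had the opposite sign (0.39, adjusted p = 0.805). These 5 genes passed in every fit without 1 array, as did dhrs12 (-0.87), klhl17 (-0.86), the RNase H2 subunit rnaseh2b (-0.64) and the dynein light chain dynll1 (-0.46).

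Besides ubb and unc119.2, the rises outside the lists that passed without any 1 array were those of slc35f6 (0.84), mfsd1l (0.73), the deubiquitinase mindy1 (0.70), oser1 (0.62), ranbp9 (0.58) and apaf1 (0.41), which encodes the scaffold of the apoptosome. The second probe sets of slc35f6, mindy1, ranbp9 and apaf1 did not pass, with differences of 0.01, 0.07, 0.32 and 0.18. Of the other large rises, calcoco1b at 0.94 lost its call on removal of fluoxetine array 1 or control array 2 (limma adjusted p = 0.0505 to 0.0602), and smtnb at 0.75 whichever of the 6 arrays was left out (adjusted p = 0.0596 to 0.115). The rise of bphl (0.74) ended without any array other than fluoxetine replicate 2 (adjusted p = 0.0711 to 0.168), and that of the deubiquitinase usp42 (0.65) on removal of fluoxetine array 1 or control array 3 (adjusted p = 0.0544 to 0.0713). A probe set of si:ch211-202a12.4 rose by 0.74 and lost its call on removal of fluoxetine array 1 or 2 or control array 2 or 3 (adjusted p = 0.0512 to 0.103). The large fall of abcf2a, -1.47 (SE 0.25, adjusted p = 0.0133), ended on removal of fluoxetine array 1 or 2 or control array 3 (adjusted p = 0.0512 to 0.0727). Chosen after their values were seen, the RNA-binding protein genes hnrnpa1b (-0.62), srsf5a (-0.51) and hnrnpa0b (-0.47) each fell. Of these, hnrnpa1b passed without any 1 array, srsf5a lost its call without control replicate 2 (adjusted p = 0.0549), and hnrnpa0b lost it on removal of fluoxetine array 1 or control array 1 or 2 (adjusted p = 0.061 to 0.104). The 3 further hnrnpa0b probe sets, of lower level, did not pass.

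Genes of serotonin and other monoamines showed no call, where 0.557% of all genes were called higher and 0.864% lower. The serotonin transporter genes slc6a4a and slc6a4b had 0 probe sets that carried their symbols and were not analysed here. Of 19 measured genes of monoamine synthesis, transport and reception, 0 passed, the median difference was -0.04, and 14 had levels in the lowest 40% of all probe sets. The smallest p was that of the adrenergic receptor adra2b (-0.25, limma adjusted p = 0.382), and the serotonin synthesis enzyme tph1a differed by -0.25 (95% interval -0.55 to 0.05).

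Xenobiotic metabolism and transport had 0 calls of 43 measured genes, and a median difference of 0.03. Shares over all genes, 0.557% higher and 0.864% lower, are low enough that a list of this size can hold 0 calls. The organic anion transporter slco1d1 stood at 6.97, 6.63 and 6.32 against 5.70, 5.43 and 5.19, a difference of 1.202 that did not pass (limma adjusted p = 0.154). Of 27 oxidative stress genes 0 passed, with a median of 0.13 and the smallest p for the autophagy receptor sqstm1 (0.59, adjusted p = 0.0813). Of 41 lysosome genes 0 passed, with a median of 0.00 and the smallest p for the protease ctsd (0.35, adjusted p = 0.071). Without the fluoxetine 25 arrays, slco1d1 (adjusted p = 0.0137), sqstm1 (adjusted p = 0.0442) and ctsd (adjusted p = 0.0233) each passed, and ctsd also with array weights (adjusted p = 0.0264).

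Genes of the digestive organs were higher on average in the fluoxetine arrays, and none passed; without the fluoxetine 25 arrays, 1 gene of the liver and yolk list did, ahsg1 (limma adjusted p = 0.0276). Of 18 measured exocrine pancreas genes, 17 had positive differences and 0 passed, and the median was 1.11 beside -0.01 over all genes. The mean level of this list was 5.31, 4.64 and 4.16 in control and 6.27, 5.47 and 5.18 with fluoxetine, and the groups overlapped. Of 35 liver and yolk lipoprotein genes, 32 had positive differences and 0 passed, with a median of 1.01. The mean level of that list was 6.60, 6.13 and 5.98 in control against 7.52, 7.09 and 6.66, without overlap. The intestine list, with 20 measured genes and 0 calls, was mixed, with 12 positive and 8 negative differences and a median of 0.13. Its means were 4.90, 4.55 and 4.52 in control against 5.22, 4.88 and 4.72. In both groups the array of replicate 1 had the highest mean of all 3 lists. Examples of positive differences are the carboxypeptidase cpb1 (1.87, SE 0.78, limma adjusted p = 0.385), the largest of its list, and the liver protein hp (1.31, SE 0.49, adjusted p = 0.319). The fatty acid binding protein fabp1b.1 (1.83, SE 0.58, adjusted p = 0.209) had the largest difference of the intestine list, whose lowest was -0.51. Group means of the pancreas list were 4.70 in control, 5.64 with fluoxetine 250, 6.52 with fluoxetine 25, 5.03 with sertraline 25 and 5.24 with sertraline 250. In the same order they were 6.24, 7.09, 6.89, 6.01 and 6.85 for the liver and yolk list. For the intestine list they were 4.66, 4.94, 5.03, 4.79 and 5.29. Higher means were thus not particular to fluoxetine 250. The part of these organs' share of the RNA in the calls above was not tested.

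**Figure D4:**
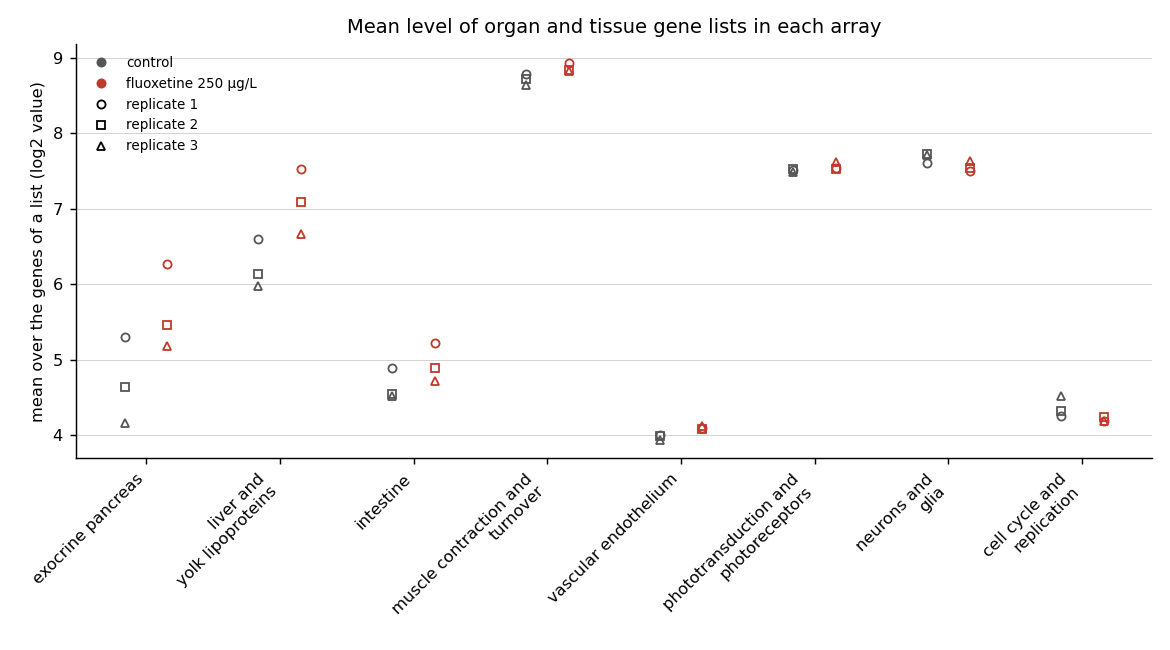
Mean log2 level over the genes of 8 organ and tissue lists in each control array (grey) and fluoxetine 250 array (red), with a symbol for each replicate number. The liver and yolk list lies higher in all 3 fluoxetine arrays, the exocrine pancreas list overlaps between the groups, and replicate 1 (circles) is highest in each group for the pancreas, liver and intestine lists.

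The lower concentration of fluoxetine, 25 µg/L, allows the size of these changes to be set against a 10-fold smaller dose. In the direct contrast of 250 with 25 µg/L, 39 probe sets passed (0.252%), 38 higher at 250 µg/L (0.245%) and 1 lower (0.00645%). The split in direction rests on single arrays: without fluoxetine 25 replicate 1 it was 77 higher and 78 lower, and without replicate 3 of that group 78 higher and 41 lower. Of the genes in the 3 clock lists, nfil3-6 passed in it, 0.81 higher at 250 µg/L (limma adjusted p = 0.0178), a call that ended without fluoxetine 250 replicate 2 or 3 or fluoxetine 25 replicate 2 (adjusted p = 0.0511 to 0.0783). Its means were 10.41 in control, 9.63 at 250 µg/L and 8.82 at 25 µg/L, so its fall from control was larger at 25 µg/L. The per2, bhlhe41 and rorcb genes did not pass. The difference of per2 was 0.08 (95% interval -0.17 to 0.33, limma adjusted p = 0.692), that of bhlhe41 0.21 (-0.18 to 0.61, adjusted p = 0.478) and that of rorcb 0.22 (-0.03 to 0.48, adjusted p = 0.291). Nor did ciarta (0.45, 0.19 to 0.70, adjusted p = 0.17), cry2 (0.25, 0.02 to 0.49, adjusted p = 0.253) or cry1b (-0.004, adjusted p = 0.988) pass. Against control, 25 µg/L gave -2.05 for per2, -2.41 for bhlhe41 and 1.37 for rorcb (limma adjusted p = 1.57e-06, 1.32e-05 and 3.36e-05). It gave -2.07 for ciarta, -1.85 for cry2 and -1.29 for cry1b (adjusted p = 1.57e-06, 1.59e-06 and 6.22e-05). For opn1mw2 the arrays of 25 µg/L stood at 7.06, 6.67 and 7.51, below those of 250 µg/L, and the difference of 0.86 (0.41 to 1.31) did not pass (adjusted p = 0.14).

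The largest difference between the concentrations was that of fkbp5. Its levels at 25 µg/L were 5.37, 4.82 and 5.56, and it stood 3.99 higher at 250 µg/L (SE 0.26, limma adjusted p = 2.98e-05). The orphan nuclear receptor gene nr4a1, an immediate early gene, stood at 7.005, 7.21 and 7.48 at 250 µg/L and 5.44, 5.62 and 4.69 at 25 µg/L (1.98, SE 0.27, adjusted p = 0.00929), beside control arrays of 7.62, 7.49 and 7.86. The secretory pathway gene sec23b (2.104), bzw1b (1.72) and the mitochondrial protein gene prelid3b (1.43) were also higher at 250 µg/L, and these 5 calls passed without any 1 array. The calls of klf2a (2.14) and jdp2b (1.497) ended without any fluoxetine 250 array or without fluoxetine 25 replicate 2 (adjusted p = 0.0511 to 0.105). The call of the mitochondrial carrier slc25a25a (1.87) ended without fluoxetine 250 replicate 1 or 3 (adjusted p = 0.0873 to 0.101), and those of dhrs13a.2 (2.93) and the kinase sik1 (1.42) without fluoxetine 250 replicate 1 (adjusted p = 0.0501 and 0.0507). The 1 probe set lower at 250 µg/L was that of zgc:193593 (-0.73, adjusted p = 0.0262), which ended without fluoxetine 250 replicate 1 or 3 (adjusted p = 0.0956 to 0.105).

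Sertraline, another drug of the same class, was given at the same mass concentration for the same time, so 1 matched pair of drug groups was compared. In sertraline minus fluoxetine at 250 µg/L, 213 probe sets passed (1.37%), 119 higher with sertraline (0.768%) and 94 lower (0.606%). This contrast shares the 3 fluoxetine arrays with the comparison against control, so the values are set side by side and no overlap is drawn from them. The per2 gene stood at 10.94, 10.81 and 10.90 with sertraline, beside 8.98, 9.20 and 9.08 with fluoxetine, 1.80 higher (SE 0.11, limma adjusted p = 1.12e-05). The bhlhe41 gene stood at 8.94, 8.96 and 9.01 with sertraline, 2.02 higher than with fluoxetine (SE 0.18, adjusted p = 0.000168). The 2 probe sets of cry2 were 1.42 and 1.204 higher, ciarta was 1.26 higher and wdr76 1.32 higher, and the intestinal phosphatase alpi.2 was 1.399 higher, each passing without any 1 array.

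The rises of rorcb, ndrg1b, mmrn2a and serpinh1b had lower levels with sertraline. The rorcb gene stood at 5.14, 5.11 and 5.26 with sertraline, a difference of -1.63 (SE 0.12, limma adjusted p = 2.81e-05). The ndrg1b gene stood at 6.44, 6.54 and 6.70, a difference of -1.55 (SE 0.10, adjusted p = 1.12e-05). The mmrn2a gene stood at 4.99, 5.36 and 5.01, a difference of -1.46 (SE 0.18, adjusted p = 0.00226), and these 3 calls passed without any 1 array. The serpinh1b difference of -1.57 (SE 0.29, adjusted p = 0.0206) ended without fluoxetine 250 replicate 1 or 3 or sertraline 250 replicate 2 or 3 (adjusted p = 0.0506 to 0.0808).

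Other genes did not differ between the drugs by a call. The cytokine suppressor socs1a stood at 6.25, 6.10 and 6.21 with sertraline, a difference of -0.23 (95% interval -0.68 to 0.22, limma adjusted p = 0.784), and socs3b at 5.29, 5.63 and 5.60, a difference of 0.31 (0.01 to 0.61, adjusted p = 0.389). The fkbp5 gene stood at 9.57, 8.98 and 8.58, a difference of -0.20 (-0.77 to 0.36, adjusted p = 0.863). The opn1mw2 gene stood at 7.22, 7.0 and 6.87, and its difference of -0.91 (-1.36 to -0.46) did not pass (adjusted p = 0.0543).

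**Figure D5:**
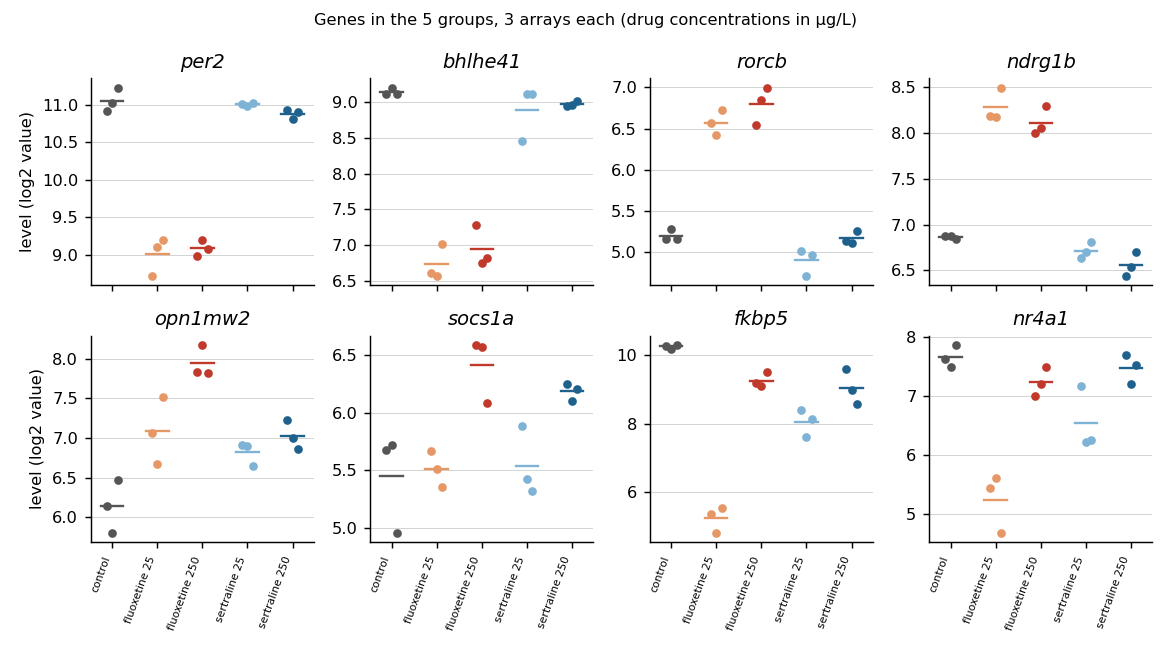
Log2 level of 8 genes in each array of the 5 groups (n = 3 arrays each), with a bar at each group's mean; concentrations are in µg/L. The fluoxetine arrays of per2 and bhlhe41 lie far below control while the sertraline 250 arrays lie near control, and fkbp5 is lowest in the fluoxetine 25 arrays, at 4.82 to 5.56.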

How the data were processed

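The values were log2 levels of 15 one-colour Affymetrix arrays, 1 per probe set and array, used as deposited by the authors; GCRMA and Partek stand in the submitters' processing notes, and their roles and versions are not given in the sources used here. Of 15617 probe sets, 115 AFFX controls were left out. Of the 15502 tested, 10795 had 1 symbol, 135 several and 4572 none in the 2016 platform annotation; 10711 matched RefSeq names of assembly GRCz12tu by Entrez number and 1 symbol was updated. No genome build was named and no coordinate was used. In limma 3.58.1 (R 4.3.3) each group's mean was estimated from all 15 arrays together, with moderated variances on 10 residual and 2.37 prior degrees of freedom, and p-values were adjusted by Benjamini-Hochberg within each comparison over all probe sets at 0.05. Precision is limited by the number of arrays, with a median 95% interval of 0.24 to either side. The fit was also run on simulated arrays with planted changes and independent normal noise per probe set. Those arrays lack shifts shared between probe sets, so they cannot give the rate of false calls in these data.

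The comparison, the 24 gene lists and the tests were chosen with earlier results of these data known. Named genes were the 24 largest rises and falls that passed, every list member that passed or else the smallest p-values, the 10 smallest p-values outside these, the 10 largest differences per direction of the direct contrasts, and fkbp5, opn1mw2 and nr3c1; further list members that did not pass were named after their values were seen. A list took each gene by its probe set with the highest mean. Alternatives were quantile normalization, a filter on the dimmest 40% of probe sets, the 6 arrays alone, a fit without fluoxetine 25, a trended and robust prior, array weights, a replicate block, and omission of each array in turn. Nothing says that beakers were set up separately, so p-values measure the spread between beakers, which may be technical in part. Figures used matplotlib 3.10.9 in Python 3.11.15.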

Additional observations from a re-analysis of the deposited data

Results flagged for a closer look

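The values here are differences between fluoxetine at 250 and at 25 µg/L that passed in the direct contrast of the same limma fit. Many of these calls ended once 1 array was left out. The largest were those of fkbp5 (3.99), dhrs13a.2 (2.93), klf2a (2.14), sec23b (2.104), nr4a1 (1.98), slc25a25a (1.87), bzw1b (1.72), jdp2b (1.497), prelid3b (1.43) and sik1 (1.42). Of these 10, the calls of fkbp5, sec23b, nr4a1, bzw1b and prelid3b passed without any 1 array, and the others did not. Against control, none of these 10 passed at 250 µg/L.

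Of the genes that passed against control at 250 µg/L, 8 were higher at 250 than at 25 µg/L: itm2cb (0.86), pik3r3a (0.84), nfil3-6 (0.81), hsd17b12a (0.78), guca1c (0.77), 1 probe set of nr3c1 (0.75), hibadha (0.64) and slc3a2b (0.57). Among them itm2cb, pik3r3a, nfil3-6, hsd17b12a, guca1c and slc3a2b fell against control at 250 µg/L, so their means at 25 µg/L lay further below control. For nfil3-6 the means were 10.41 in control, 9.63 at 250 µg/L and 8.82 at 25 µg/L. The nr3c1 probe set rose at 250 µg/L, with means of 3.48 in control, 4.29 at 250 µg/L and 3.54 at 25 µg/L. The gene zgc:193593 was lower at 250 µg/L, at -0.73. Of these 9 calls, none passed in every fit without 1 array; itm2cb lost its call without fluoxetine 250 replicate 1 (adjusted p = 0.0501). The calls of the others ended without 2 to 4 of the 6 arrays of this contrast (adjusted p = 0.0501 to 0.208), in each case including fluoxetine 250 replicate 1, 2 or 3.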

How the results depend on the processing

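Of the 134 probe sets with 1 symbol that passed against control, 0 changed direction under any alternative that tested them. Their groups did not overlap, so among the alternatives only quantile normalization could have changed a direction. The other alternatives say nothing about direction. Without the dimmest 40% of probe sets, 129 of the 134 were tested. The 179 calls became 171 with quantile normalization, 190 without the dimmest 40% of probe sets (165 shared), 164 with a trended and robust prior, 276 without the fluoxetine 25 arrays (172 shared), 276 with array weights (178 shared), and 61 with the 6 arrays alone (58 shared), which leave fewer degrees of freedom. Of the 134 calls with 1 symbol, 86 ended with the 6 arrays alone and 33 with a replicate block. Among those that ended with the 6 arrays alone were neurod1 (limma adjusted p = 0.0704), ranbp9 (adjusted p = 0.0891) and mid1ip1l (adjusted p = 0.0512), which passed without any 1 array. Leaving out 1 array gave 74 to 149 calls. For 250 against 25 µg/L, the 39 calls became 25 with array weights and 20 to 155 without 1 array; they were 20 without fluoxetine 250 replicate 1, 155 without fluoxetine 25 replicate 1 and 119 without fluoxetine 25 replicate 3. For sertraline against fluoxetine, the 213 calls became 668 with array weights and 90 to 173 without 1 array. The cause of these shifts was not tested.

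With a replicate block, 147 probe sets passed against control, 57 of them higher, and 135 were shared with the fit without it. Same-numbered fluoxetine and control arrays deviated from their group means with correlations of 0.177, 0.039 and 0.195 across probe sets, and the samples share only a number. Each array correlated best with its own number, but control replicate 2 by little, at 0.039 against 0.037 with fluoxetine replicate 1. Deviations within a group are tied to each other, and a shared set-up by number was not tested. The planned search of promoter motifs was not run.

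Probe sets of low level, among them most monoamine genes and clock activators, sit near the bottom of the scale.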
